A study of Mus musculus with 14 samples.

Results

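The genes described here are the chemokines, interleukins and tumour necrosis factor (TNF) family members of the mouse heart, together with their receptors and the proteins named after their induction by TNF. They were chosen by symbol alone, as every gene whose name began with Ccl, Cxcl, Ccr, Cxcr or Il and a number, or with Tnf. The rule found 65 of the 13219 gene symbols measured in hearts treated with a viral vector, 64 of them protein-coding genes and 1, Tnfsf13os, a long non-coding RNA. The transcript with the highest mean stood for each symbol, and 30 members had more than 1 transcript row. RefSeq lists 185 mouse symbols that match the same rule. Of 22 family members of main interest, 14 were measured, and Tnf, Il1b, Il6, Il10, Il18, Ccl5, Il1rl1 and Tnfrsf11b were not analysed here.

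RNA was sequenced from whole hearts of C57BL/6J mice fed a high-fat diet (60% of energy from fat) for 12 weeks from an age of 7 to 9 weeks. CTRP9, encoded by C1qtnf9, is a secreted glycoprotein of the adiponectin-related family, and the comparisons asked how its loss or its excess in the heart alters gene expression under this diet. In the first experiment, 4 hearts came from mice injected with adeno-associated virus 9 carrying C1qtnf9 under a cardiomyocyte promoter, that of troponin T (AAV-CTRP9: CTRP9_609, CTRP9_610, CTRP9_611 and CTRP9_620). The 3 control hearts received the same vector with Renilla luciferase (AAV-Luc: Luc_614, Luc_615 and Luc_624). In the second, 4 hearts from homozygous C1qtnf9 knock-out mice (KO) were compared with 3 from wild-type littermates (WT). No chow-fed heart was analysed here, so every group shares the diet.

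Chemokines are small secreted proteins that guide leukocytes through seven-transmembrane receptors, with the CC and CXC classes named after the spacing of their first cysteines. Interleukins signal through paired receptor chains, some of which, such as Il6st (gp130) and Il2rg (the common gamma chain), serve many ligands. TNF ligands bind trimeric receptors that recruit TRAF adaptors and activate NF-kappaB or death pathways. In heart tissue these transcripts come from resident macrophages, fibroblasts and endothelium as well as from cardiomyocytes, and reads of a whole heart do not separate these sources.

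The vector libraries had effective sizes of 23626917 to 30262264 reads, and C1qtnf9 was measured at 44.3 to 109 CPM (reads of a gene scaled to a common library size) in the AAV-CTRP9 hearts against 16.0 to 26.2 CPM in the AAV-Luc hearts. The KO table gave C1qtnf9 0 to 2 reads in KO and 481 to 498 in WT hearts. Xist reads in that table, from 0 to 851 in WT and from 1 to 47 in KO hearts, varied among animals described as male. Luc_614 stood apart in the vector experiment: the rank correlation of its deviations with the GC content of the genes was 0.52, against -0.27 to -0.11 in the other hearts. The folds of all members with and without it are plotted, and values without it are given in the text for a part of them. The cardiomyocyte markers summed to 15799 to 16337 CPM in AAV-CTRP9 and 12275 to 15198 CPM in AAV-Luc hearts, and no T cell or adipocyte marker was measured.

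The members were weakly expressed, with a median of 99 reads per gene and heart (14 to 3409) and a mean level under 5 CPM in 38 of them. By CPM the highest were Cxcl12 at a mean of 108 CPM, Il6st at 89.0, Il10rb at 56.8, Il11ra1 at 51.0 and Tnfaip1 at 43.1. Scaled to transcript length, which allows genes to be compared, Il10rb led at 30.7 CPM per kilobase, followed by Tnfsf13os at 28.8, Il11ra1 at 26.1, Cxcl12 at 19.2 and Tnfrsf12a at 18.0. All other members lay below these levels per kilobase. That of Tnfsf13os is uncertain, as its 349 to 636 reads per heart lay near the 371 to 680 of Tnfsfm13, which overlaps it on the other strand.

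AAV-CTRP9 hearts had lower mean levels of most of these genes than AAV-Luc hearts, but no single member passed the adjusted test. By limma with Benjamini-Hochberg adjustment over all 13219 symbols, 0 of 65 members had an adjusted p under 0.05, where 0.0151% of all symbols did. At an unadjusted p under 0.05, 13 members were lower in AAV-CTRP9 hearts, where 4.36% of all symbols were, and 2 were higher, where 4.3% were. In 14 members every AAV-CTRP9 heart lay below every AAV-Luc heart, against 4.54% of all symbols, and in 3 every heart lay above, against 4.49%. The log2 fold change was below 0 for 46 members and above 0 for 19, where it was below 0 for 5688 of all symbols and above 0 for 7531. Its median was -0.18 in the members against 0.026 over all symbols. Because the exons of Tnfsfm13 and Tnfsf13os overlap those of other TNF ligands, the counts were repeated without them and came to 11 lower and 2 higher of 63. This repeat does not remove every overlap. Among all members, 11 share 20% or more of their exon bases with another gene on either strand. Of those, 6 are among the 13 lower members, Tnfsfm13 and Tnfsf13os included. In bulk tissue fewer cells of a type and less RNA per cell cannot be told apart.

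**Figure D1:**
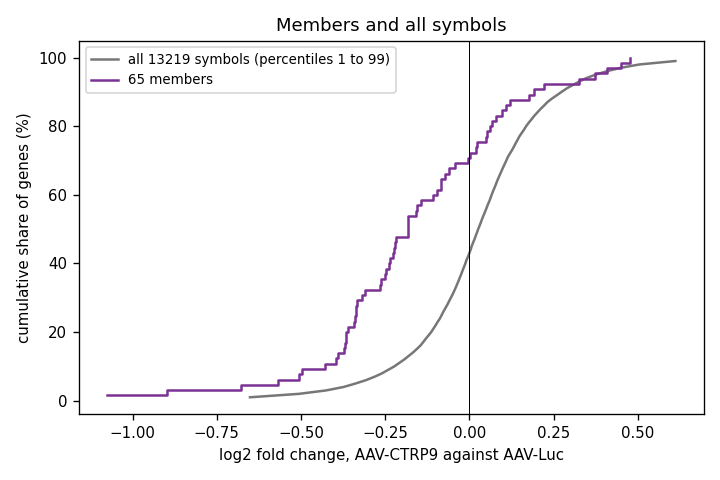
Cumulative share of genes (y axis, percent) against the log2 fold change of AAV-CTRP9 over AAV-Luc hearts (x axis), for the 65 members (purple steps) and for all 13219 symbols (grey line, percentiles 1 to 99). The members' curve lies to the left over most of its length, with medians of -0.18 and 0.026, and meets that of all symbols at the upper end.

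The members with the lowest folds were Ccl9 and Ccl6, neighbouring CC chemokine genes of chromosome 11 that act on myeloid cells in the mouse. Both lie on the minus strand (GRCm38, GENCODE M21, 1-based), Ccl9 at chr11:83572919-83578636 and Ccl6 at chr11:83587882-83593087. The 250 bases before each RefSeq start (GRCm38.p6) are shown for this reason, and capitals mark the longest run that the 2 promoters share, GCCCTCCACTTCC, 13 bases long.
Ccl9, chr11:83578637-83578886, minus strand: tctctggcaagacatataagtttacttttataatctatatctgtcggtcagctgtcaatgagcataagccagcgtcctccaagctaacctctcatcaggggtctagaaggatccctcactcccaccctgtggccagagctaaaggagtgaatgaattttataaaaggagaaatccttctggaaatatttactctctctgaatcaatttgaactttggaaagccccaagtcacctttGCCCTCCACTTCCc
Ccl6, chr11:83593088-83593337, minus strand: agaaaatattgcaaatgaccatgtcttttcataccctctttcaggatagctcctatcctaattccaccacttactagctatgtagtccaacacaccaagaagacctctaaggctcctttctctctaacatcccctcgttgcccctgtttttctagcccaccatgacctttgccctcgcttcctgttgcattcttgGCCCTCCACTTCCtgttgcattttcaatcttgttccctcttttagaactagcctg
The run begins 14 bases before the start of Ccl9 and 55 bases before that of Ccl6, and occurs on either strand in 4 of 27025 promoters (0.0148%), these 2 included. It was looked for after the values were seen and describes the letters only.

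Ccl9 had 2.84, 2.55, 1.72 and 3.0 CPM in CTRP9_609, CTRP9_610, CTRP9_611 and CTRP9_620 and 4.79, 6.46 and 4.67 CPM in Luc_614, Luc_615 and Luc_624. Every AAV-CTRP9 heart was below every control, and the group mean was 2.53 ± 0.571 (SD, n = 4) against 5.31 ± 1.0 CPM (n = 3). The log2 fold change was -1.07 (SE 0.21), or 47.5% of the control level on the log2 scale. Its adjusted p was 0.163 by limma and its exact permutation p 0.0286, the smallest that 35 splits can give. The call depended on the tool: on recovered whole reads the adjusted p was 8.6e-04 by edgeR's likelihood ratio test and 0.00155 by DESeq2, but 0.135 by edgeR's quasi-likelihood test. Those tools called 0.635%, 0.461% and 0.0151% of all symbols. Without Luc_614 the limma adjusted p of Ccl9 was 0.0176, with a log2 fold change of -1.14.

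Ccl6 had 4.78, 4.18, 2.88 and 6.04 CPM in the AAV-CTRP9 hearts, in the same order, and 7.63, 10.3 and 6.72 CPM in the AAV-Luc hearts. The groups did not overlap, and as for Ccl9 CTRP9_611 was the lowest and Luc_615 the highest. The log2 fold change was -0.90 (SE 0.23), with a limma adjusted p of 0.358 and an exact permutation p of 0.0571. The edgeR likelihood ratio test gave Ccl6 an adjusted p of 0.035 and DESeq2 0.0392. Its whole span lies within the opposite-strand gene E230016K23Rik, but no overlap of their annotated exons was found. No source used here says whether reads were counted by strand. The other CC chemokines, Ccl25, Ccl2, Ccl11 (eotaxin) and Ccl27a, had log2 fold changes of -0.34, -0.22, -0.22 and -0.0032, none at an unadjusted p under 0.05 by limma. Ccl11 turned to 0.031 without Luc_615 and Ccl27a to 0.075 without Luc_614.

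Markers of macrophages were lower in the same group of hearts as Ccl9 and Ccl6, and their part in the result was not tested. All 9 macrophage markers measured had log2 fold changes below 0, as did 5688 of all 13219 symbols. At an unadjusted p under 0.05 by limma 6 were lower, where 4.36% of all symbols were. These were Lyz2 (lysozyme), Cd68, Csf1r and the complement C1q chains C1qa, C1qb and C1qc, which are not independent markers. Lyz2 alone had an adjusted p under 0.05, at 0.0354 by limma, where 0.0151% of all symbols did. Summed over the list, the 9 markers reached 131 to 135 CPM in AAV-CTRP9 and 189 to 192 CPM in AAV-Luc hearts. Single markers differed: Adgre1, Mrc1 and Cd163 overlapped between the groups, at log2 fold changes of -0.35, -0.26 and -0.30. That of Mrc1 was -0.57 without Luc_614 and -0.064 without Luc_624. The 6 CC chemokines together reached 12.2 to 17.7 CPM against 20.6 to 25.3 CPM, again without overlap, but the 4 without Ccl6 and Ccl9 overlapped, at 6.79 to 8.63 against 8.20 to 9.53 CPM. The CXC chemokines overlapped as well, at 126 to 135 against 115 to 148 CPM.

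Other cell type markers did not move as one. Markers of all leukocytes summed to 16.7 to 24.3 against 25.1 to 28.9 CPM, but without Laptm5, a lysosomal protein of blood cells, they overlapped at 7.32 to 9.65 against 7.57 to 11.05 CPM. Ptprc (CD45) had a log2 fold change of 0.25 (SE 0.45), but its direction rested on single control hearts, at 0.859, 2.36 and 4.94 CPM in Luc_614, Luc_615 and Luc_624. The fold of Ptprc was -0.40 without Luc_614 and 0.84 without Luc_624. Fibroblast markers summed to 331 to 368 against 394 to 470 CPM. In that list the 3 collagens were lower at an unadjusted p under 0.05 by limma, where 4.36% of all symbols were. Dcn (decorin) and Pdgfra had log2 fold changes of -0.029 and 0.13. The 2 B cell markers measured were higher in sum, at 6.89 to 10.03 against 5.53 to 6.61 CPM, and one of them, Ighd, had a log2 fold change of 1.32 (SE 0.23, limma adjusted p 0.134). The other, Ighm, overlapped between the groups, at 4.74 to 6.66 against 4.28 to 5.72 CPM, with a log2 fold change of 0.21 (SE 0.15).

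**Figure D2:**
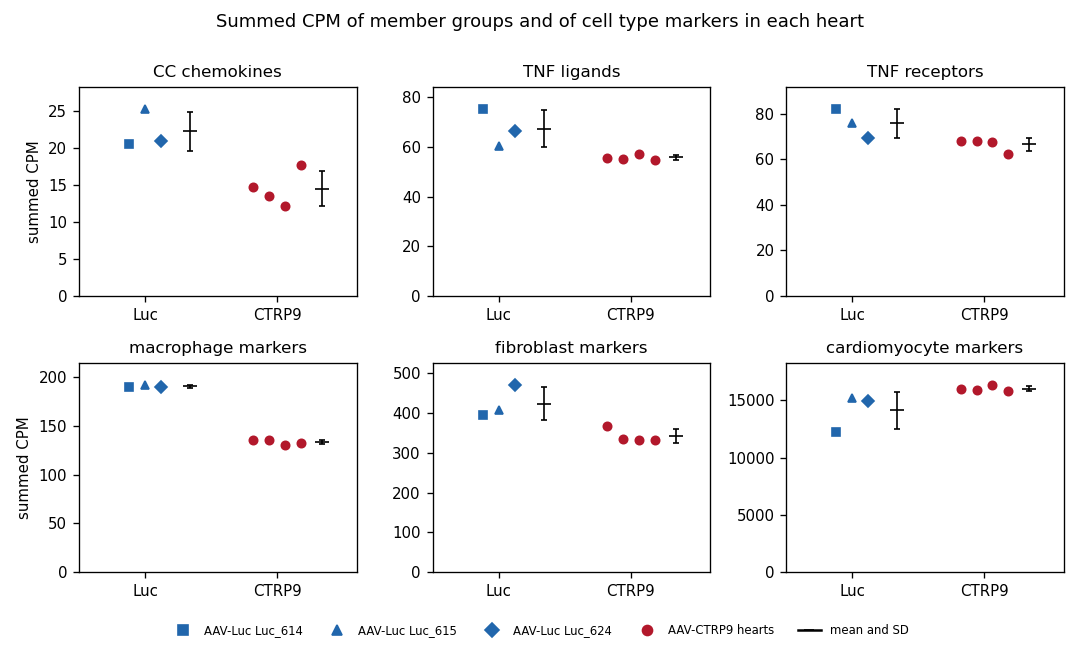
Summed CPM (y axis, from 0) in each heart for the CC chemokines, the TNF ligands, the TNF receptors and the markers of macrophages, fibroblasts and cardiomyocytes, with AAV-Luc hearts in blue, AAV-CTRP9 hearts in red and the mean and SD of each group in black. The macrophage markers lie at 131 to 135 CPM in AAV-CTRP9 and at 189 to 192 CPM in AAV-Luc hearts.

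Of the CXC chemokines only Cxcl16, a membrane-bound ligand that also binds oxidised lipoprotein, was at an unadjusted p under 0.05. Cxcl16 had 4.19, 4.35, 4.52 and 5.97 CPM in the AAV-CTRP9 hearts and 6.44, 7.28 and 6.30 CPM in the controls. The groups did not overlap, CTRP9_620 being the closest to the controls, and the log2 fold change was -0.50 (SE 0.14, limma adjusted p 0.40). Of its exon bases, 20.5% lie opposite those of Zmynd15, which had a log2 fold change of -0.48. Cxcl12, the stromal ligand of Cxcr4 that retains leukocytes and progenitors, had 114, 110, 113 and 97.8 CPM against 113, 88.5 and 122 CPM. These ranges overlapped widely, at a log2 fold change of 0.024 (SE 0.11), which turned to -0.026 when library totals alone set the scale. Cxcl14 and Cxcl9 had log2 fold changes of -0.31 and -0.073, and that of Cxcl14 was -0.11 without Luc_614, its highest heart at 24.3 CPM.

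Among the chemokine receptors, overlapping levels were measured for Ccr2 and Cxcr4. Ccr2, which draws monocytes to its ligand Ccl2, reached 0.813 to 1.70 CPM in AAV-CTRP9 and 1.06 to 2.70 CPM in AAV-Luc hearts, with a log2 fold change of -0.25 (SE 0.36). Ccl2 itself lay at 0.702 to 1.03 against 0.50 to 1.63 CPM, with -0.22 (SE 0.38), so that neither member of this pair was separated from the control spread. Without Luc_624 both folds turned positive, to 0.18 and 0.093. Cxcr4 reached 3.50 to 5.12 against 3.10 to 5.35 CPM, at 0.12 (SE 0.20), and had a fold of -0.031 without Luc_615. The row used for Ccr9 begins 88772 bases from the RefSeq start of that gene, and its log2 fold change of 0.41 was 0.058 without Luc_614.

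**Figure D3:**
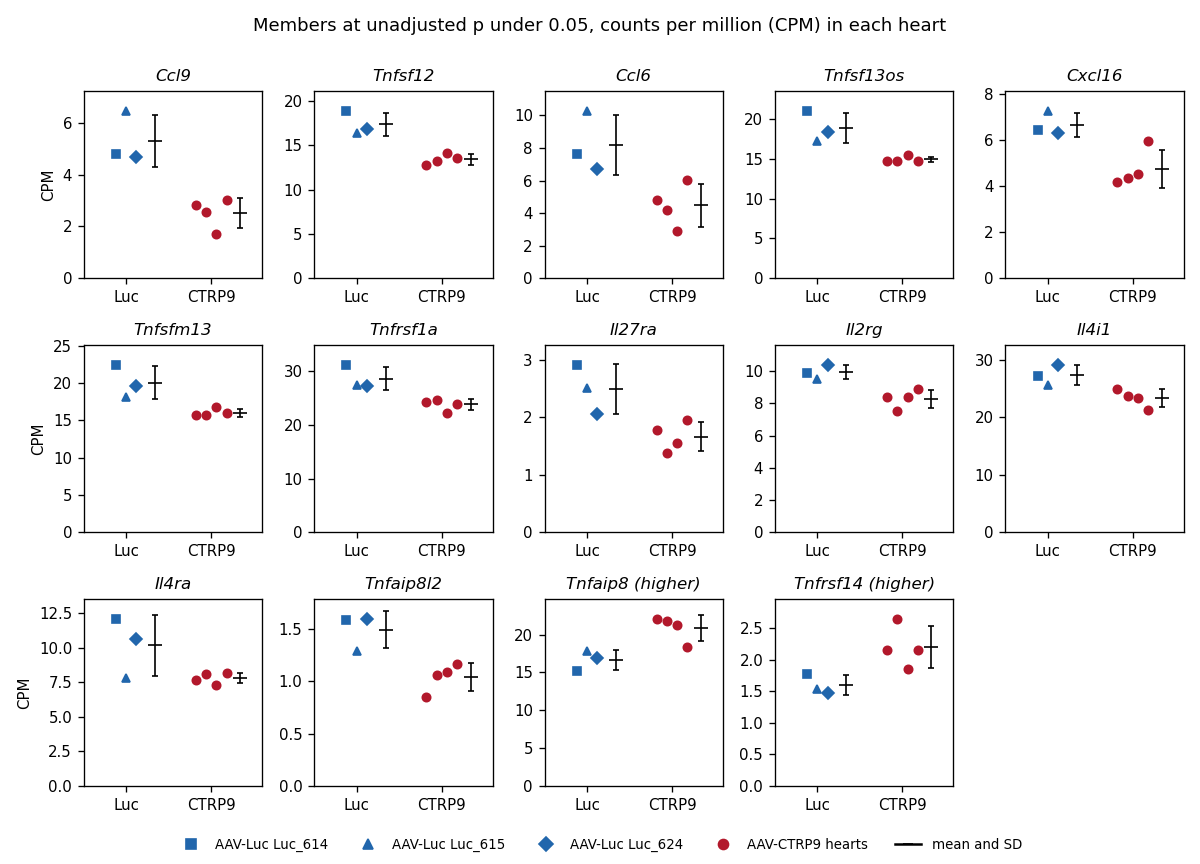
CPM (y axis, from 0) in each heart for 12 members lower and 2 higher in AAV-CTRP9 hearts at an unadjusted p under 0.05 by limma, with AAV-Luc hearts in blue by symbol, AAV-CTRP9 hearts in red and the mean and SD of each group in black. Every panel but that of Il4ra shows groups that do not overlap, those of Ccl9 lying at 1.72 to 3.0 against 4.67 to 6.46 CPM.

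None of the 7 interleukins and interleukin-binding proteins was at an unadjusted p under 0.05 by limma. Their folds lay on both sides of 0, 4 below and 3 above, where 5688 of all symbols were below and 7531 above. Il33, an alarmin of stromal cells, had 0.889, 0.814, 1.30 and 1.31 CPM against 1.95, 0.963 and 1.56 CPM, with overlapping ranges and a log2 fold change of -0.43 (SE 0.30). It was -0.21 without Luc_614 and -0.71 without Luc_615, the latter at an unadjusted p of 0.0366. Il15, which sustains natural killer and memory T cells, and Il15ra, the chain that presents it, had 0.11 (SE 0.17) and 0.098 (SE 0.14), and they were at -0.021 and -0.018 without Luc_614. Il17d was above the controls in every AAV-CTRP9 heart, at 3.04 to 5.21 against 2.57 to 2.84 CPM, CTRP9_609 being the highest, with a log2 fold change of 0.37 at an unadjusted p of 0.0869.

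Among the 19 interleukin receptors, 13 folds were below 0, as were 5688 of those of all 13219 symbols. At an unadjusted p under 0.05 by limma 3 of these receptors were lower, where 4.36% of all symbols were. Il27ra, a receptor chain for interleukin-27, had 1.78, 1.38, 1.54 and 1.94 CPM in AAV-CTRP9 and 2.91, 2.50 and 2.05 CPM in AAV-Luc hearts. No heart overlapped, yet the nearest hearts, CTRP9_620 and Luc_624, were close, and the log2 fold change of -0.57 (SE 0.20, limma adjusted p 0.488) had an unadjusted p of 0.0602 without Luc_614. Il2rg had 8.38, 7.5, 8.42 and 8.87 CPM against 9.91, 9.53 and 10.4 CPM, without overlap, at -0.26 (SE 0.10, limma adjusted p 0.529). It shares 43.6% of its exon bases with Gm20489 on the same strand, which had a fold of -0.26, so the reads of the pair cannot be assigned. Il4ra, which binds interleukin-4 and interleukin-13, had 7.66, 8.07, 7.33 and 8.17 CPM against 12.1, 7.78 and 10.7 CPM. Here Luc_615 lay within the AAV-CTRP9 range, and the log2 fold change was -0.36 (SE 0.14, limma adjusted p 0.544), or -0.22 without Luc_614 and -0.54 without Luc_615.

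Il17rc and Il3ra were also below all controls, without an unadjusted p under 0.05, at log2 fold changes of -0.37 (SE 0.17) and -0.25 (SE 0.13). Without Luc_614, at 4.43 CPM the highest heart for Il17rc, its fold was -0.20. The chains of the interleukin-6 family behaved unequally in level: the shared signal transducer Il6st was at 86.0 to 94.5 against 83.4 to 88.5 CPM, while the ligand-binding chain Il6ra was at 2.72 to 3.08 against 2.94 to 5.20 CPM. Their folds were 0.080 (SE 0.070) and -0.34 (SE 0.20), and Luc_624 was the highest control heart of Il6ra, without which its fold was -0.079. Il1r1, the signalling receptor of interleukin-1, had 9.06 to 9.44 against 8.79 to 12.9 CPM and a fold of -0.18 (SE 0.13). Single control hearts carried this value, which was -0.31 (unadjusted p 0.0152) without Luc_614 and -0.033 (unadjusted p 0.761) without Luc_624. Il10rb and Il11ra1, the most abundant receptor chains per length, had folds of 0.018 (SE 0.10) and 0.048 (SE 0.089). These levels are uncertain, as 30.8% of the exon bases of Il10rb are also in Gm21970 on the same strand and the row of Il11ra1 begins 60454 bases from its RefSeq start. Il12rb2, at 0.48 (SE 0.23), shares 58.4% of its exon bases with Serbp1 on the other strand, and its fold was 0.16 without Luc_614.

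The lowest fold among the TNF ligands was that of Tnfsf12 (TWEAK), which signals through Tnfrsf12a. Tnfsf12, at chr11:69686250-69695849 on the minus strand, had 12.7, 13.2, 14.2 and 13.6 CPM in AAV-CTRP9 and 18.9, 16.4 and 16.8 CPM in AAV-Luc hearts. The groups did not overlap, with means of 13.4 ± 0.608 (SD, n = 4) and 17.4 ± 1.33 CPM (n = 3). The log2 fold change was -0.37 (SE 0.090), with a limma adjusted p of 0.323 and an exact permutation p of 0.0286. Tnfsfm13, a transcript that joins Tnfsf12 to Tnfsf13, and the antisense RNA Tnfsf13os had folds of -0.32 (SE 0.094) and -0.34 (SE 0.092). Tnfsfm13 is not separate evidence, since 50.7% of the exon bases of Tnfsf12 are also in it. Of the exon bases of Tnfsf13os, 42.4% lie opposite those of Tnfsfm13 and none overlap those of Tnfsf12, although the spans of Tnfsf13os and Tnfsf12 share 4892 bases. Tnfsf13os had 349 to 636 reads per heart, near the 371 to 680 of Tnfsfm13, so it is not shown to be separate evidence either. Tnfsf13 (APRIL) itself, also at this locus, had a fold of 0.0021 (SE 0.23) that was -0.22 without Luc_615 and -0.047 when library totals alone set the scale, from 1.57 to 2.81 CPM over all hearts. Tnfsf10 (TRAIL), an apoptosis-inducing ligand, was at 7.47 to 8.89 against 6.10 to 9.19 CPM, with a fold of 0.061 (SE 0.14) that was -0.10 without Luc_615.

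**Figure D4:**
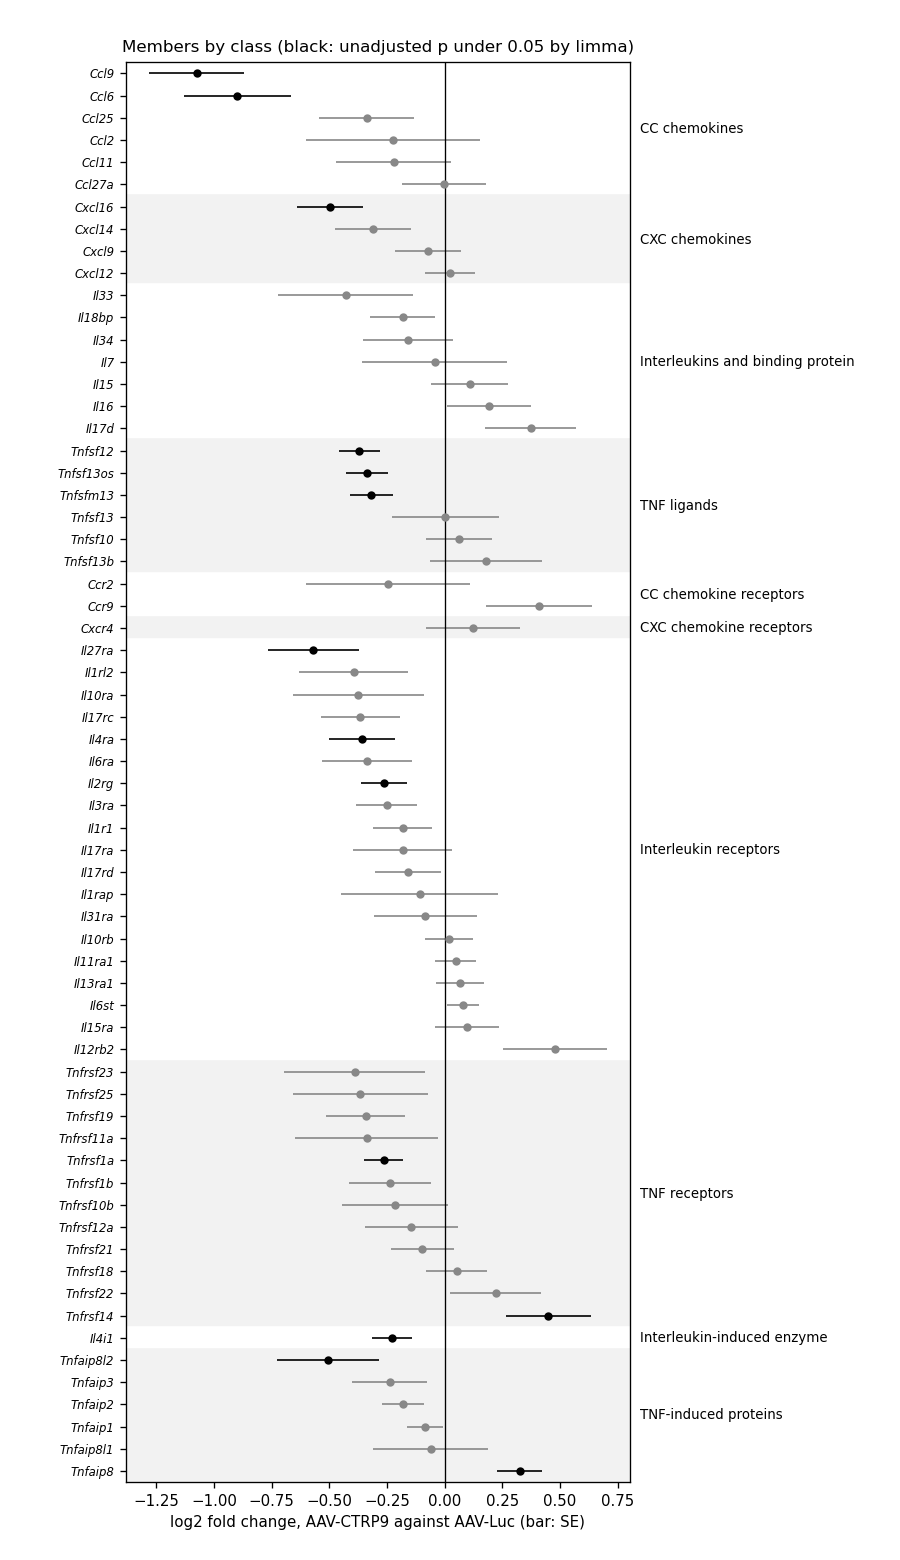
Log2 fold change (x axis) of AAV-CTRP9 over AAV-Luc hearts for the members reported, ordered within their class (right margin), with bars of 1 SE and black points at an unadjusted p under 0.05 by limma. The lowest folds are those of Ccl9 at -1.07 and Ccl6 at -0.90, and most points lie below 0.

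Of the 12 TNF receptors, 9 had folds below 0, as did 5688 of all 13219 symbols. Tnfrsf1a, the ubiquitous TNF receptor with a death domain, had 24.3, 24.7, 22.3 and 24.0 CPM in AAV-CTRP9 and 31.2, 27.4 and 27.4 CPM in AAV-Luc hearts. The groups did not overlap, at a log2 fold change of -0.26 (SE 0.084, limma adjusted p 0.45, exact permutation p 0.0286). Tnfrsf1b, the second TNF receptor, had 4.28 to 6.05 against 4.92 to 7.52 CPM, at -0.24 (SE 0.18), or -0.43 without Luc_615 and -0.12 without Luc_624. Tnfrsf12a, the inducible receptor of Tnfsf12, varied within both groups, from 13.5 to 21.2 and from 12.9 to 22.9 CPM, and its fold of -0.14 (SE 0.20) was 0.014 without Luc_614. Tnfrsf14, the herpesvirus entry mediator, was higher, with 2.16, 2.65, 1.86 and 2.16 CPM against 1.78, 1.53 and 1.48 CPM. Its groups did not overlap, but these are 39 to 75 reads, and the fold of 0.45 (SE 0.18, limma adjusted p 0.559) missed an unadjusted p under 0.05 in 5 of the 7 fits with 1 heart left out.

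A match to the NF-kappaB letters, GGG and CC with any 5 bases between them, was sought on either strand in the 250 bases before the start of the 49 members listed in the RefSeq table. It occurred in 26 of them, against 45.4% of all 27025 promoters. The PU.1 box GAGGAA, the letters of a myeloid transcription factor, occurred on either strand in 10 members, against 23.1% of all promoters. Of the 8 lower members with a listed promoter, 4 held the NF-kappaB letters and 1 the PU.1 box. Ccl9 had 1 NF-kappaB match and Ccl6 had none. Tnfrsf1a is shown with its match in capitals, since it is the receptor of TNF.
Tnfrsf1a, chr6:125349473-125349722, plus strand: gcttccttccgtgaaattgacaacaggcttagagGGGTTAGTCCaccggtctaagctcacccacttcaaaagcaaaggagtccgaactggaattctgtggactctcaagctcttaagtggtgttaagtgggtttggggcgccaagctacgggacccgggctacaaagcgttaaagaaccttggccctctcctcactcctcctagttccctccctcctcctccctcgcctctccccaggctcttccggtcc
The motifs were chosen after the values were seen, and a match is a description of the letters and not a site.

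The proteins named for induction were not uniform. Tnfaip8, a regulator of cell survival at chr18:49979427-50107173, was higher, with 22.1, 21.8, 21.3 and 18.3 CPM in AAV-CTRP9 and 15.1, 17.8 and 17.0 CPM in AAV-Luc hearts. The closest hearts of the groups were CTRP9_620 and Luc_615, and the log2 fold change was 0.32 (SE 0.099, limma adjusted p 0.427). Its relative Tnfaip8l2, a restraint on immune cell activation that is named here after its values were seen, was lower, at 0.846 to 1.17 against 1.28 to 1.59 CPM and a fold of -0.50 (SE 0.22, limma adjusted p 0.57). Tnfaip3 (A20), a feedback inhibitor of NF-kappaB, had a fold of -0.24 (SE 0.16), or -0.11 without Luc_624, and Tnfaip1 and Tnfaip2 had -0.084 (SE 0.078) and -0.18 (SE 0.090). Il4i1, an amino acid oxidase induced by interleukin-4, had 24.8, 23.7, 23.4 and 21.3 CPM against 27.2, 25.6 and 29.1 CPM, at -0.23 (SE 0.087, limma adjusted p 0.529). Its row begins 19892 bases from the RefSeq start and shares 87% of its exon bases with Tbc1d17 on the other strand, so this level is uncertain.

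Luc_614 had the highest level of 24 members (36.9%, against 24.2% of all symbols) and Luc_624 that of 20 (30.8%, against 15.5%). The count of lower members was 16 without Luc_614, where 5.92% of all symbols were lower, 17 without Luc_615, where 4.64% were, and 11 without Luc_624, where 4.44% were. Without Luc_614, 150 of all symbols (1.13%) passed the adjusted limma test, and Ccl9 was the only member among them. Of the 15 members at an unadjusted p under 0.05, 8 stayed there in the same direction whichever heart was left out, namely Ccl9, Ccl6, Cxcl16, Tnfsf12, Tnfsfm13, Tnfsf13os, Tnfrsf1a and Tnfaip8. Of these 8, Tnfsf12, Tnfsfm13 and Tnfsf13os lie at the same locus and may share reads. The share of all symbols that stay in this way is not given here, so the count of 8 has no background. The other members lost an unadjusted p under 0.05 without at least 1 heart. The largest unadjusted p was 0.0602 for Il27ra (without Luc_614), 0.0694 for Il2rg (CTRP9_610) and 0.0738 for Il4i1 (Luc_624). It was 0.106 for Il4ra (Luc_614), 0.116 for Tnfaip8l2 (Luc_614) and 0.0999 for Tnfrsf14 (CTRP9_610). Of the 30 members described here that were not at that threshold, many with folds near 0, 27 had a fold that moved by over 1.5 times or changed sign when a heart was left out. Of the 14 described that were at it, Il4ra alone had such a fold. These 14 were chosen by their p in the same hearts, which favours folds that move little. The contrast with the 30 is therefore a description and does not show that the 14 are stable. With the trend on GC content removed from each library, 15 members were lower, against 5.38% of all symbols, and 2 were higher, against 4.25%.

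**Figure D5:**
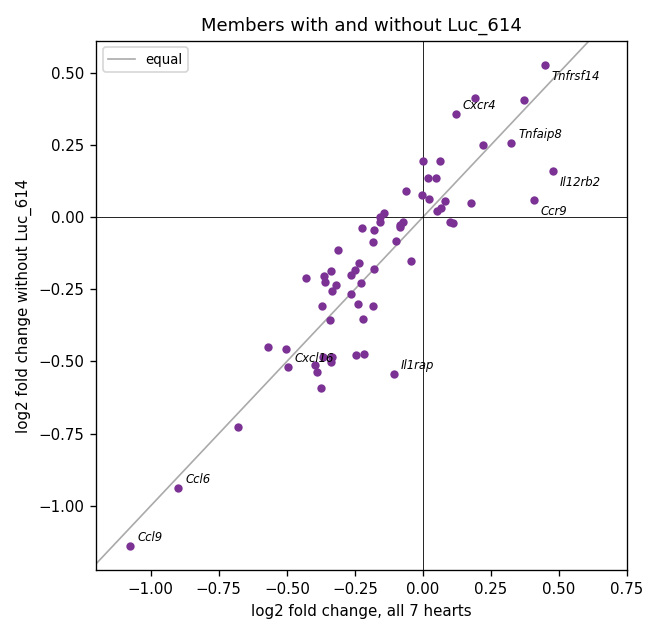
Log2 fold change of each member without Luc_614 (y axis) against that with all 7 hearts (x axis), the grey line marking equal values. Ccl9 (-1.07 and -1.14) and Ccl6 (-0.90 and -0.94) lie near the line, while Ccr9 (0.41 and 0.058), Il12rb2 (0.48 and 0.16) and Il1rap (-0.11 and -0.55) lie away from it.

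Other genes of these pathways, which the symbol rule does not cover, were read from a list of 82 colony-stimulating factors, further ligands and receptors, adaptors and transcription factors. Of the 57 measured, 0 had an adjusted p under 0.05 by limma, where 0.0151% of all symbols did. At an unadjusted p under 0.05, 6 were lower, where 4.36% of all symbols were, and 1 was higher, where 4.3% were. The median log2 fold change was -0.042. The lower genes were the receptor chains Csf1r, Csf2ra, Csf2rb, Csf2rb2 and Csf3r, which serve myeloid growth factors, and Mif. With 1 control heart left out, the unadjusted limma p was 0.141 for Mif (Luc_614), 0.110 for Csf2ra (Luc_624) and 0.0624 for Csf3r (Luc_615). Csf1r and Csf3r are also on the macrophage and neutrophil marker lists, and reads of the near-identical Csf2rb and Csf2rb2 may be shared. Ctf1 (cardiotrophin-1), a ligand of the interleukin-6 family, was the higher gene, with 2.80 to 3.50 against 1.71 to 2.03 CPM and a fold of 0.72 (SE 0.15, limma adjusted p 0.228).

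In the KO experiment no member was listed. The table holds the 1230 symbols that the study called at an unadjusted p under 0.05, and 0 of the 65 members were among them by symbol, by another name or by accession, where 8.67% of the symbols measured in the vector hearts were listed. Listing became more frequent with level, from 2.18% of symbols under 2 CPM, which held 16 members, to 3.73% at 2 to 5 CPM (22 members), 7.17% at 5 to 20 CPM (19 members) and 19.2% above (8 members). Values of unlisted genes were not analysed here, so a smaller difference in these genes cannot be read from the table. Of the 82 further pathway genes, 3 were listed. Cx3cr1, the fractalkine receptor of monocytes and macrophages, had normalised read counts of 35.9, 56.0, 41.1 and 61.8 in KO and 5.85, 31.5 and 26.9 in WT hearts. Its groups did not overlap, the fold rested in part on the lowest WT heart, and the log2 fold change was 1.14 (SE 0.38), or 0.73 without that heart. In the vector experiment Cx3cr1 overlapped between the groups, at 172 to 210 CPM in AAV-CTRP9 and 176 to 218 CPM in AAV-Luc hearts. Its log2 fold change there was -0.032 (SE 0.094), so no opposite change was measured. Traf2, an adaptor of TNF receptors, was at 121 to 138 against 86.6 to 99.2 (0.50, SE 0.13), and Rela, a subunit of NF-kappaB, at 653 to 720 against 718 to 815 (-0.18, SE 0.073, or -0.068 with scaling factors from the listed rows). These 3 were chosen by the same contrast, so their folds are descriptions.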

How the data were processed

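Whole-heart RNA was sequenced by the study as single-end reads, trimmed with FastqCleaner and aligned to mm10 with bowtie2. The study names the library type as strand-specific, but no source used here names the read counter, its strand setting or any version. For the 7 vector hearts the authors deposited log2 CPM made with edgeR, with a prior count of 1. Whole reads were recovered from 100% of these values (tolerance 0.01). For the 7 KO and WT hearts the authors deposited raw counts, with their own fold changes and p-values, which were not used except that the largest p-value (0.0499) showed how the table was cut. The deposited mean signal gave the size factors, and the deposited RPKM sums gave library totals. A further 14 per-sample columns were not used. The authors' comparison columns hold fold changes and p-values of the same contrasts.

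Vector hearts were compared on the log2 scale by limma 3.58.1 (R 4.3.3), with the prior variance following the intensity, Benjamini-Hochberg adjustment over 13219 symbols and a threshold of 0.05. The exact permutation tests were 2-sided over 35 splits, for which the smallest p is 0.0286. Alternatives were edgeR 4.0.16 and DESeq2 1.42.0 on recovered reads, library totals, prior counts of 0.1 and 2 CPM, a mean CPM of at least 1, summed transcript rows, no trend, removal of a smooth GC trend, and each heart left out. Listed KO genes were refitted with edgeR and the authors' size factors. Fits were tested on simulated data. Each heart is a different mouse. The 3 AAV-Luc samples carry CTRP9 in their titles and were grouped by their stated treatment.

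Named genes were members past the adjusted threshold, up to 12 per direction with the smallest unadjusted p under 0.05 (12 lower and 2 higher), members of main interest, the 5 highest levels and measured ligand and receptor pairs (4 of 12). A further 15 members, such as Il17d, were named after their values were seen. Members and lists were chosen with earlier results of these data known. A member is not reported here. The low read counts of many members limit the precision of single genes.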

Additional observations from a re-analysis of the deposited data

Results flagged for a closer look

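In the 4 AAV-CTRP9 hearts, a single heart stood far from the rest for 2 of the 65 members, where chance gives about 1 in 20 groups. For Il17d the gap between CTRP9_609, at 5.21 CPM, and the nearest other heart was 0.948 of the range of the group, the other hearts lying at 3.04, 3.16 and 3.08 CPM. For Tnfsf13os the gap between CTRP9_611, at 15.5 CPM, and the nearest other heart was 0.914 of the range, the other hearts lying at 14.7 to 14.8 CPM.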

How the results depend on the processing

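The count of members lower at an unadjusted p under 0.05 stayed within 1.5 times of 13 under every alternative tried, with 10 to 17 when 1 heart was left out. The count of higher members was 2, 1 with library totals as the only scaling, 1 by DESeq2, and 1 to 4 when 1 heart was left out. Past the adjusted threshold were 0 members by limma, 0 by edgeR's quasi-likelihood test, 2 (Ccl6 and Ccl9) by edgeR's likelihood ratio test and 2 by DESeq2, and 0 to 1 when 1 heart was left out. Over the same settings, the number of all symbols past the threshold was 2 by limma, 2 by quasi-likelihood, 84 by likelihood ratio and 61 by DESeq2. The alternative without Tnfsfm13 and Tnfsf13os and the sums without Ccl6 and Ccl9 or without Laptm5 were chosen after seeing the data.

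Of 748 alternative values for 44 named members, 664 kept their direction and their side of an unadjusted p of 0.05, 23 lost and 24 gained that side, and 37 changed sign. With library totals alone, the log2 fold change of Cxcl12 was -0.026, that of Il10rb -0.031, that of Il11ra1 -0.0019 and that of Tnfsf13 -0.047. Ccl27a and Tnfsf13, whose folds were near 0, were at 0.0017 and -0.0037 with a prior count of 2 CPM, at 0.071 and -0.0042 with summed transcript rows, at 0.0089 and -0.025 by quasi-likelihood, at 0.0085 and -0.024 by likelihood ratio and at 0.0027 and -0.029 by DESeq2. Ccl27a was at 0.011 with the GC trend removed. The other changes of sign came when 1 heart was left out. The folds then ranged from -0.35 to 0.031 for Ccl11, from -0.10 to 0.12 for Ccl27a, from -0.22 to 0.19 for Tnfsf13, from -0.73 to 0.093 for Ccl2, from -0.48 to 0.18 for Ccr2, from -0.11 to 0.12 for Cxcl12, from -0.031 to 0.36 for Cxcr4, from -0.049 to 0.14 for Il10rb and from -0.0096 to 0.14 for Il11ra1. They ranged from -0.021 to 0.32 for Il15, from -0.018 to 0.24 for Il15ra, from -0.55 to 0.29 for Il1rap, from -0.40 to 0.014 for Tnfrsf12a and from -0.10 to 0.19 for Tnfsf10. All of these had a main log2 fold change within 0.25 of 0, and the cause was not tested. For the KO experiment, Rela was at -0.068 with factors from the listed rows and at -0.071 by DESeq2, and Cx3cr1 ranged from 0.73 to 1.52 when 1 heart was left out.

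No paired analysis was possible because the animal numbers are not shared between groups. A median of 99 reads per member and heart limits what a difference in a single gene can show.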
